A study of Homo sapiens with 9 samples.

Results

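The regions described here are the called peaks that lie in the gene-poor flanks of human centromeres. They were chosen on summit position in all 5 peak lists of the study: a peak was taken when its summit fell in 1 of 14 windows beside the centromere models of 9 chromosomes of GRCh38. The windows were drawn around places where peaks of these same lists are dense, so the number of peaks in them is a description of the choice and was not tested. The rule took 2299 of 37375 peaks. These were 294 of 886, 270 of 570, 244 of 790 and 270 of 882 peaks in the lists of pulldown replicates 1, 2, 3 and 4, and 1221 of 34247 peaks of the KAS library.

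The DNA came from HL-60, a human promyelocytic leukaemia line, in its differentiated, neutrophil-like form (dHL60). For the pulldown, the cells were driven to release neutrophil extracellular traps with 500 nM PMA over 4 h, and the traps were given 1 µM biotinylated alpha thrombin for 1 h, fixed with formaldehyde, sonicated and enriched on streptavidin beads (4 libraries, with 4 matching inputs that are not analysed here). In the KAS library (1 sample), cells were induced for 4 h and given 5 mM N3-kethoxal for 10 min, with no PMA dose recorded and no thrombin named. Nothing in the labels says that the 4 pulldowns were separate cultures, and their spread may therefore be technical.

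Pericentromeric flanks join the alpha satellite of the centromere to the chromosome arm. They hold few genes, many segmental duplications and long arrays of other satellites, among them human satellites 2 and 3, whose units derive from the pentamer ATTCC. Extracellular traps are webs of decondensed chromatin that neutrophils release, and thrombin is the clotting protease that cuts fibrinogen to fibrin. N3-kethoxal reacts with guanines that are not base paired, so KAS-seq enriches DNA that was single-stranded when labelled. The study's title names thrombin and single-stranded (ATTCC)n repeats in these traps. The letters under the peaks were not analysed here, because no genome sequence was used.

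RefSeq promoter sequences (GRCh38.p14, 250 bases before to 50 after an annotated start) were used for the few starts in the windows that touch a peak or lie near one. A gene can have several such starts. That of LOC105379504 lies inside the span of the gene, chr21:7772829-7786307. RefSeq lists 58 such promoters in the windows, of which 2 shared bases with a KAS peak and 0 with a pulldown peak. The same counts were not made over all promoters, so these cannot be called low or high. The 2 promoters with a KAS peak and the promoter nearest to a reproducible pulldown region follow, 5′ to 3′ on the gene's strand. Capitals mark the most frequent 10-base word in the first (13 copies) and every ATTCC, or its reverse complement GGAAT, in the third; the second has neither pentamer.
LOC105379504, chr21:7775822-7776121, plus strand: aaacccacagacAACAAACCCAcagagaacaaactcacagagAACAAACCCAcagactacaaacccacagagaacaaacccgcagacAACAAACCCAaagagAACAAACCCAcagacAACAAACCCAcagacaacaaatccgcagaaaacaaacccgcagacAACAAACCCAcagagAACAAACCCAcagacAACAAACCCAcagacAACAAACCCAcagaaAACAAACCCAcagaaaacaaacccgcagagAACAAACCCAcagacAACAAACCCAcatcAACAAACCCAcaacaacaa
LOC105379418, chr22:10741842-10742141, plus strand: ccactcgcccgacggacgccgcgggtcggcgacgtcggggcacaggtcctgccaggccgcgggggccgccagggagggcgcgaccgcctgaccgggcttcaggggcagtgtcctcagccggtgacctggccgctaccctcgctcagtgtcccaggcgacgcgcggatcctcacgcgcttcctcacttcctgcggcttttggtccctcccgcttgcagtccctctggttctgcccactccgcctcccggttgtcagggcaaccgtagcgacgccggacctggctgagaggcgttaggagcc
LOC105374862, chr2:89845564-89845863, plus strand: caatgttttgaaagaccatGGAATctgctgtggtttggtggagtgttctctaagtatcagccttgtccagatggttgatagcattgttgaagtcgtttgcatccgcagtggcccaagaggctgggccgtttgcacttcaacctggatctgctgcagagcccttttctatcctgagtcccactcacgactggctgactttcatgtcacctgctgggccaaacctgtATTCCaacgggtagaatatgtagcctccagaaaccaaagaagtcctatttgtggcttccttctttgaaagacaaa

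The LOC105379504 promoter is a tandem repeat of a unit of 15 bases: 86.0% of its bases equalled the base 15 positions on. Only 1 of the 58 promoters in the windows, against 48 of 35116 in the table (0.137%), reached 75% identity at any offset from 5 to 40 bases. A KAS peak at chr21:7775830-7776168 (fold 5.98, pileup 10 reads) shared 292 of its 300 bases. This promoter holds neither ATTCC nor GGAAT. The LOC105379418 promoter is 72.0% G and C and shared 101 bases with a KAS peak at chr22:10741739-10741942 (fold 6.57, pileup 27). The promoter lay 11.3 kb from the nearest reproducible pulldown region. LOC105374862, 4.31 kb from a reproducible region on chromosome 2, holds 1 ATTCC and 1 GGAAT and touched no KAS peak. The pentamer, searched on both strands, was in 23 of the 58 promoters in the windows (39.7%) and in 12771 of 35116 in the table (36.4%). A match is only a match of letters.

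Of the microRNAs that RefSeq places in the windows, hsa-miR-3648 (MIR3648-2, chr21:8987026-8987046, plus strand) was the only mature sequence inside a KAS peak. Its seed, bases 2 to 8, is in capitals.
hsa-miR-3648: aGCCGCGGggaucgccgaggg
The KAS peak, chr21:8986734-8987600, was 867 bases long with fold 6.32 and a pileup of 123 reads, and no pulldown peak touched it. The only other microRNA genes in the windows are MIR9901 and MIR10396A, too few to read a share from. MIR10396A begins at chr21:8987617, just past the end of this peak.

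The 14 windows add up to 17.6 Mb, 0.570% of the extent of the chromosomes in the lists. They held 33.2%, 47.4%, 30.9% and 30.6% of the peaks of pulldown lists 1 to 4 (mean 35.5% ± 7.99, SD, n = 4), and 3.57% of the KAS peaks (exact 95% interval 3.37 to 3.77%, counting error only). The share in replicate 2 stood above the other 3, while its count in the windows, 270, was inside their range of 244 to 294. What differed was the rest of its list: 300 peaks outside the windows against 592, 546 and 612.

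The windows were filled unevenly. The second window of chromosome 10 (41.6 to 42.4 Mb) held 48, 55, 38 and 43 pulldown peaks, the highest mean of any window. Chromosome 4 (49.0 to 49.7 Mb) followed with 51, 48, 30 and 32 peaks, where replicates 1 and 2 were above replicates 3 and 4. Per Mb the densest was the second window of chromosome 1 (143.1 to 143.3 Mb), with 35, 29, 23 and 24 peaks in 0.2 Mb, a mean of 138.75 per Mb. The sparsest was the second window of chromosome 22 (15.1 to 17 Mb), with 5, 3, 4 and 5 peaks. In the first window of chromosome 10 (38.5 to 39.7 Mb) there were 8, 1, 14 and 13 peaks, with replicate 2 far below the others. KAS peaks were ordered otherwise. The first window of chromosome 16 (34 to 35 Mb) held the most KAS peaks, 203, beside 25, 21, 17 and 23 pulldown peaks, while the first window of chromosome 21 (7.2 to 8.1 Mb) held 19 KAS peaks beside 12, 5, 13 and 11.

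**Figure D1:**
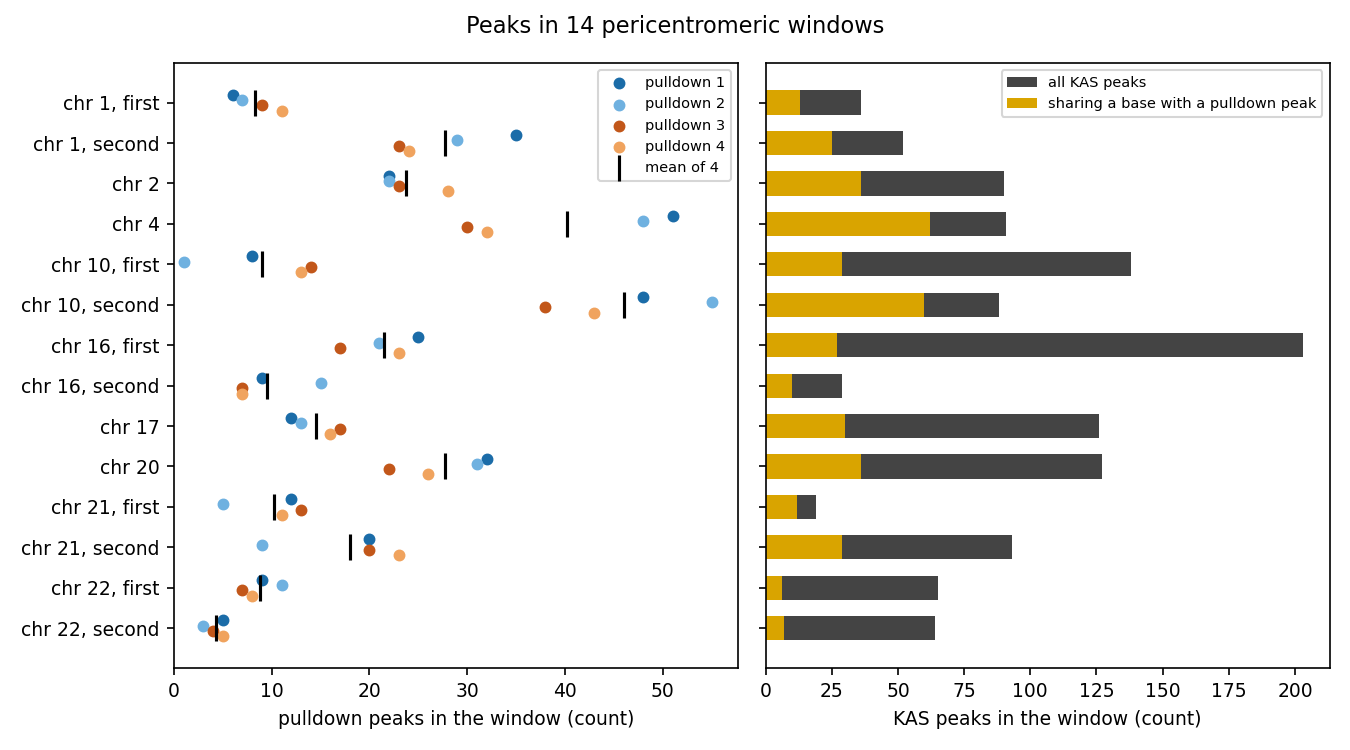
Peaks in each of the 14 windows. Left, pulldown peaks per window in each of the 4 lists (points) and their mean (bar mark); right, KAS peaks per window, with those that share a base with a pulldown peak in yellow. The second chromosome 10 window and chromosome 4 lead on the left, and the first chromosome 16 window, with 203 peaks, on the right.

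Peaks of the 4 pulldown lists that shared at least 1 base were merged into regions. The windows held 319 of the 1652 merged regions: 104 were in 1 list, 47 in 2, 35 in 3 and 133 in all 4. A region in at least 3 of the 4 lists is called reproducible here. That gave 168 of 319 in the windows (52.7%), against 330 of 1652 over the genome (20.0%) and 162 of 1333 outside the windows (12.2%). Since the windows were drawn on dense stretches of the same peaks, nothing is read from that difference. Of the 168, 133 were in all 4 lists (79.2%).

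By window, all 7 regions of the second chromosome 16 window and 28 of the 29 on chromosome 4 were reproducible, and so were 20 of 24 in the second window of chromosome 1. At the other end stood the first window of chromosome 10, with 3 of 23 and none in all 4 lists, and the first window of chromosome 1, with 4 of 13. The second chromosome 10 window had the most merged regions, 44, of which 25 were reproducible.

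The reproducible regions lay close together. Joining regions no more than 50 kb apart gave 27 groups. The 15 groups with at least 5 regions held 144 of the 168 (85.7%) within 641 kb, which is 3.64% of the window length, and regions covered 44.2% of that span. The 2 groups with the most regions, 20 each, were chr1:143184644-143267610 and chr4:49091350-49156654. On chromosome 10, chr10:41848343-41915695 held 17 regions and chr10:42066333-42090884 held 8. The other groups of at least 8 were chr2:90380729-90400721 and chr21:10655190-10732125 with 10 regions each, and chr4:49631965-49657882 and chr16:34571645-34596193 with 8 each. Cover differed among them: regions took up 76.4% of the 25.9 kb of the second chromosome 4 group and 10.1% of the 85.0 kb of the group at chr20:31157044-31242012, which has 6 regions.

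Within the larger chromosome 10 group, the 4 lists called the same ground in pieces of different length. Replicates 1 and 2 had 29 and 39 peaks there, the longest of 3.55 and 1.85 kb. Replicates 3 and 4 had 22 each, the longest of 4.45 and 7.30 kb. The KAS library had 40 peaks, the longest of 4.78 kb. Median folds in the group were 2.75, 2.39, 3.23 and 2.93 in the pulldown lists and 4.88 in KAS.

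**Figure D2:**
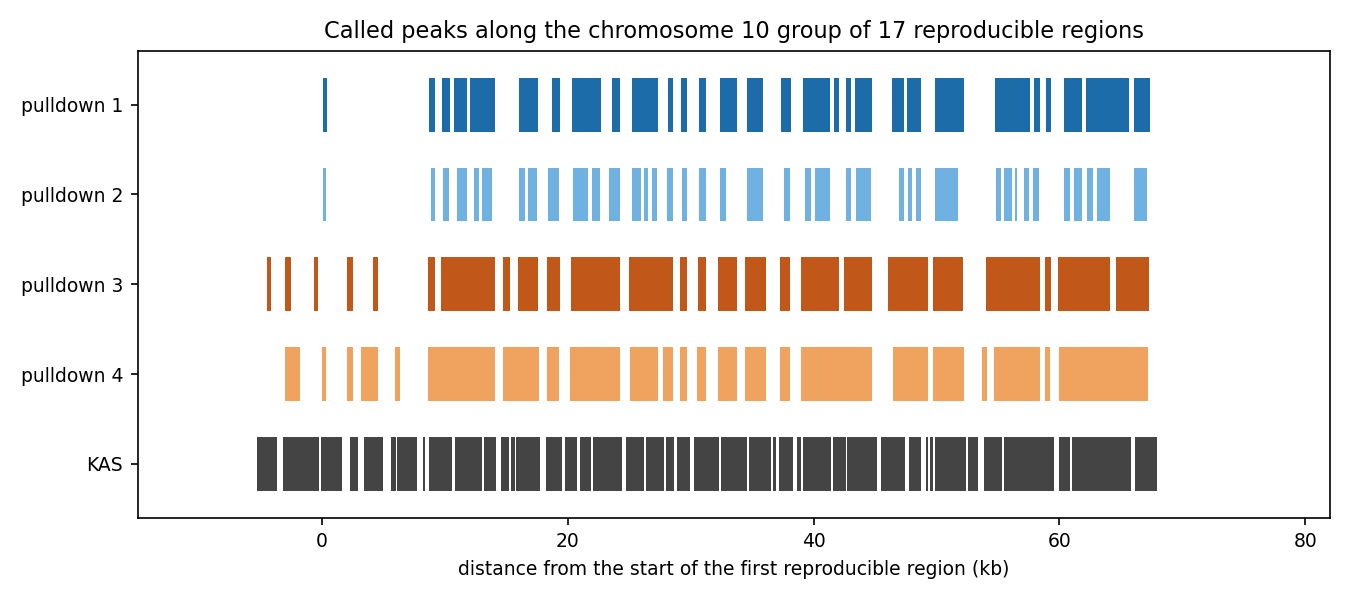
Called peaks along the chromosome 10 group of 17 reproducible regions, by distance in kb from the start of its first region, 1 row per list. Each block is a called peak; lists 3 and 4 show fewer and longer blocks than lists 1 and 2 over the same stretches, and KAS peaks run over nearly all of them.

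The fold of a peak is the authors' value from the peak caller, the pileup at the summit over the local background, and is used here only to describe and rank peaks. Ranked by the number of lists and then by the mean of the 4 folds (the strongest peak of each list), the first region was chr22:16359419-16360477, with folds 3.19, 5.56, 3.98 and 5.43 (4.54 ± 1.15, SD, n = 4). Replicate 1 was the lowest there. It lies 27.2 kb from ABCD1P4, a pseudogene of a peroxisomal transporter gene, and 230 kb from the nearest protein-coding gene, CCT8L2. The second was chr21:7925832-7928128, with folds 3.56, 4.06, 4.22 and 4.89 (4.18 ± 0.549), which lie closer together. It is 96.2 kb from the predicted gene LOC102723475.

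The third, chr4:49152865-49156654, had folds 4.40, 3.76, 4.14 and 3.28 (3.90 ± 0.488) and spans 3790 bases, at pileups of 156, 159, 157 and 161 reads. It lies 90.8 kb from CWH43, a gene of glycolipid anchor remodelling. The fourth, chr20:31157044-31158725, had folds 3.72, 2.62, 4.87 and 4.38 (3.90 ± 0.974). Its nearest protein-coding gene, 98.9 kb away, is DEFB115, a beta-defensin, of a family of small antimicrobial peptides. The means of the third and the fourth differ by less than the SD of either.

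The fifth, chr17:21987275-21991880, spans 4606 bases and had folds 4.39, 3.07, 4.09 and 3.99 (3.89 ± 0.566). KCNJ18, a potassium channel gene, is 283 kb away. Ranks 6 and 11 are neighbours on chromosome 21: chr21:10662095-10662629 had 2.72, 3.88, 3.81 and 5.00 (3.85 ± 0.929), and chr21:10667811-10669309 had 4.51, 3.17, 3.12 and 3.92 (3.68 ± 0.662). They lie 56.4 and 62.1 kb from TPTE, a testis-expressed phosphatase-like gene. In the former replicate 1 was the lowest list and in the latter it was the highest.

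Ranks 8 to 10 and 12 had means from 3.68 to 3.78. The widest spread among the 12 was at chr20:31188880-31189426, with folds 5.43, 2.05, 3.49 and 4.09 (3.77 ± 1.40). Replicate 1 was the highest and replicate 2 the lowest of the 4 there. At chr2:90387735-90388647 the folds were 2.49, 3.16, 4.88 and 4.41 (3.73 ± 1.10), with replicates 3 and 4 above 1 and 2. From rank 1 to rank 12 each mean differs from the next by less than the SD of either, so the order among neighbours is not resolved by these replicates.

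**Figure D3:**
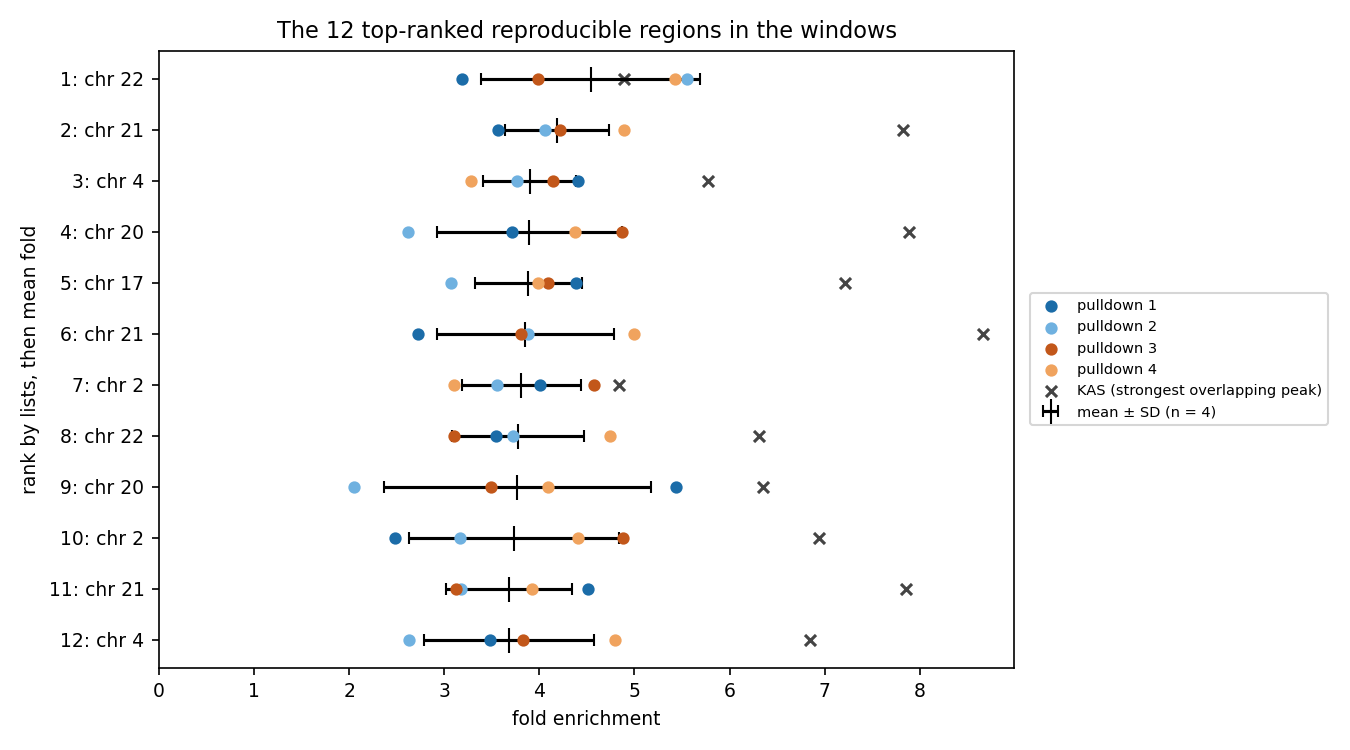
Fold of the 12 top-ranked reproducible regions: points, the strongest peak in each pulldown list; bars, mean ± SD over the 4 lists; crosses, the strongest overlapping KAS peak. The KAS cross lies inside the pulldown range in rank 1 and above every pulldown point from rank 2 on; it comes closest at rank 7, where replicate 3 is at 4.57 and KAS at 4.84.

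The tightest of the leading regions was chr1:125079821-125082443, the best of the first chromosome 1 window, at 3.42, 3.39, 3.62 and 3.60 (3.51 ± 0.120). Some regions in only 3 lists had higher means than any in 4. At chr17:21984959-21985568 the folds were 5.11, 4.85 and 5.06 in replicates 1, 3 and 4 (5.01 ± 0.137, n = 3). At chr10:38898193-38898591 they were 6.37, 4.38 and 4.25 in replicates 1, 2 and 4 (5.00 ± 1.19, n = 3). The lowest mean was chr1:143232410-143233694, with 1.66, 1.56, 1.66 and 1.46 (1.58 ± 0.0969), at pileups of 200, 199, 200 and 200 reads. The lowest mean fold thus came with pileups among the highest in the lists.

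The widest region, chr20:31056740-31069645, covers 12906 bases and had folds 2.58, 2.94, 3.36 and 2.82. It was called as 5 and 8 peaks in replicates 1 and 2, as 2 in replicate 3 and as 1 in replicate 4. Next came chr1:143211822-143223370 with 11549 bases, called as 8, 5, 1 and 1 peaks with folds 2.78, 2.62, 1.66 and 1.44. At chr10:42076689-42084195, 7507 bases, the folds were 4.21, 3.38, 2.09 and 1.77. In both of the latter the lists with several peaks had the higher strongest fold. Of the reproducible regions, 10 of 168 in the windows and 1 of 162 outside were wider than 5 kb. The windows were drawn on dense peaks, which merge more readily, so nothing is read from that difference.

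In each of the 4 lists, peaks in the windows had a greater median width, a higher pileup and a lower fold than peaks elsewhere. The median fold in the windows was 2.61, 2.32, 3.26 and 3.11 in replicates 1 to 4 (2.83 ± 0.437). Outside it was 3.71, 3.49, 4.11 and 4.02 (3.83 ± 0.286). The windows were lower in 4 of 4 lists, although the range inside (up to 3.26) came near the range outside (from 3.49). In the stretches between the 2 windows of chromosomes 1, 10, 16 and 22, which are also counted outside, the medians were 3.72, 3.53, 3.84 and 3.74 (3.71 ± 0.128). The windows lie beside the centromere models, so these stretches take in such models and do not stand for chromosome arms.

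Median width was 462, 448.5, 836.5 and 748 bases in the windows (624 ± 198) and 302.5, 366.5, 459.5 and 468 bases outside (399 ± 79.1). Peaks wider than 1 kb made up 17.7%, 11.9%, 44.3% and 39.3% of peaks in the windows and 1.35%, 1.33%, 6.78% and 7.68% of those outside. Replicates 3 and 4 had the wider peaks on both sides. With this width the windows held 53.9% ± 3.71 of the bases of the lists, 212, 159, 346 and 360 kb. Median pileup was 92.5, 103.5, 67.5 and 66 reads in the windows (82.4 ± 18.6) and 35, 36, 28 and 30 outside (32.3 ± 3.86), with no overlap between the 2 sets of medians.

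No peak in any list had a pileup above 200 reads, and most of the peaks at that ceiling were in the windows: 14 of 16, 16 of 16, 13 of 15 and 12 of 15 in the pulldown lists and 26 of 32 in KAS. Folds of the ceiling peaks in the windows ran from 1.65 to 2.06, 1.40 to 2.33, 1.65 to 2.11 and 1.44 to 1.92. Folds were lower at higher pileups, so fold was also compared within bands of pileup. At pileups up to 50 reads the median fold was 3.61 ± 0.258 in the windows and 4.13 ± 0.188 outside, a mean difference of -0.524 ± 0.177. Above 50 reads it was 2.59 ± 0.298 against 3.02 ± 0.292, a difference of -0.437 ± 0.0346. Peaks above 50 reads were 72.1% ± 12.4 of those in the windows and 26.2% ± 5.84 of those outside. Within either band the gap was thus smaller than without bands. The part of the ceiling in these values was not tested.

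**Figure D4:**
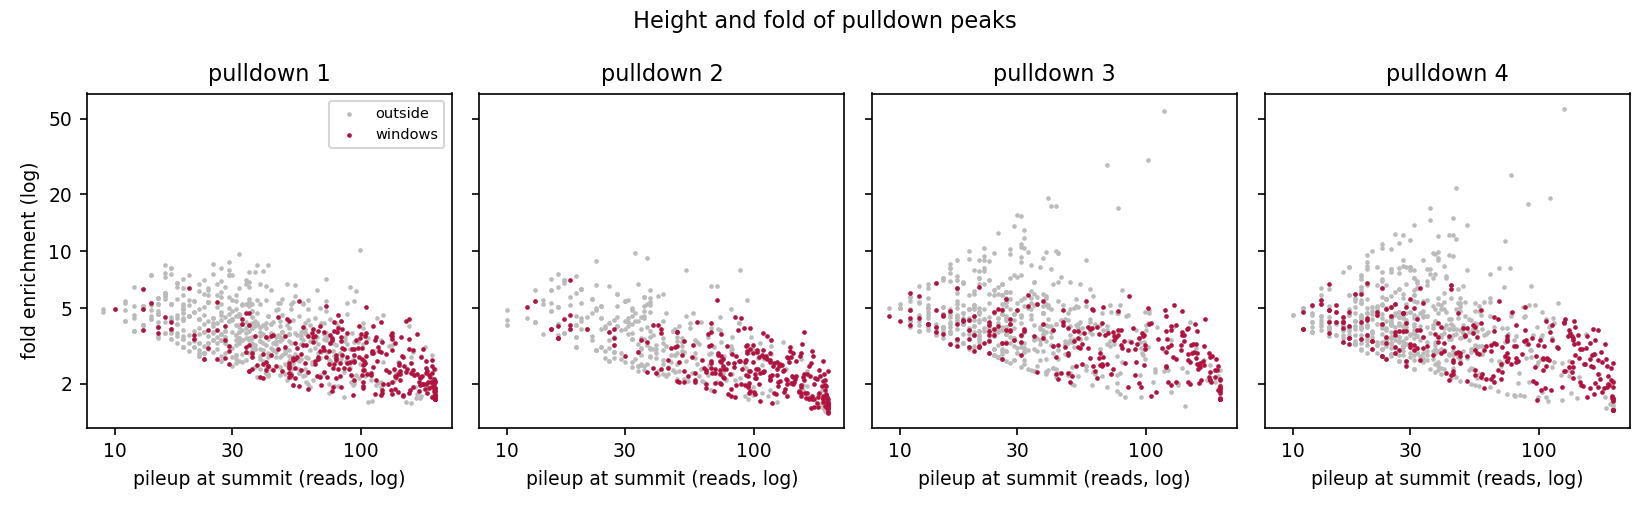
Fold against pileup at the summit for every pulldown peak, 1 panel per list, both axes on a log scale, windows in red and the rest in grey. Window peaks crowd at the right, up to the ceiling of 200 reads, where folds are lowest; the highest folds in lists 3 and 4, up to 55.1 and 56.6, are outside the windows.

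The pileup of a region was nearly the same number of reads in each list. Over the 133 regions held by all 4 lists, the coefficient of variation of the highest pileup across lists had a median of 5.30%, and it was under 10% in 115 of 133. That of the fold had a median of 17.8% and was under 10% in 16. At chr2:89826095-89826671 pileups were 79, 79, 82 and 82 reads, and at chr2:89831974-89833506 they were 123, 119, 129 and 126 while folds were 2.56, 1.59, 5.20 and 4.19. Pearson's r of log2 pileup between lists averaged 0.97 over the 6 pairs (0.97 to 0.99) and that of log2 fold 0.50 (0.37 to 0.71), n = 133 regions. In the 131 of these regions with a KAS peak, r between the mean pulldown pileup and the highest KAS pileup was 0.93. Outside the windows the same values were a median variation of 9.05% for pileup and 17.9% for fold over 71 regions, r of 0.95 and 0.67, and 0.87 with KAS (n = 43). These are descriptions across regions, which share libraries and are not independent; read depths, input coverage and mappability were not analysed here.

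The lists did not overlap equally. Each overlap is given as a share of the list named first, because lists that split a region into several peaks reach a higher share. Of the 270 window peaks of replicate 2, 95.6% overlapped a replicate 4 peak, while 57.8% of the 270 of replicate 4 overlapped a replicate 2 peak. Between replicates 1 and 2 the shares were 73.1 and 90.0%, and between 3 and 4 they were 84.8 and 77.0%. Replicate 1 peaks met replicate 3 and 4 peaks in 88.8 and 93.2%, against 66.8 and 65.6% the other way. For replicates 2 and 3 the shares were 93.3 and 61.5%. The 12 shares ran from 57.8 to 95.6% in the windows and from 19.4 to 60.3% outside them. Log2 folds correlated best within replicates 3 and 4 (r = 0.71) and within 1 and 2 (r = 0.67). Of the regions in exactly 2 lists, 33 were in replicates 3 and 4, 8 in 1 and 4, 4 in 2 and 4, 2 in 2 and 3, and none in 1 and 2 or in 1 and 3. Replicate 2 was the list missing from 21 of the 35 regions in 3 lists.

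Over the 133 regions in all lists, replicate 2 gave the lowest fold in 63 and the highest in 14. Replicate 3 gave the highest in 52 and the lowest in 15. Replicates 1 and 2 split a region into 1.79 and 1.81 peaks on average and replicates 3 and 4 into 1.08 and 1.09, so 77, 72, 122 and 123 of the 133 were a single peak. The labels give no batch for these lists, and what sets replicates 1 and 2 apart from 3 and 4 was not tested.

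Reproducible pulldown regions in the windows almost always lay on KAS peaks. Of the 168, 165 shared at least 1 base with a KAS peak (98.2%, exact 95% interval 94.9 to 99.6%), against 73.9% of all 330 reproducible regions, 79 of 162 outside the windows (48.8%, 40.8 to 56.7%) and 3 of 20 between paired windows (15.0%, 3.21 to 37.9%). The stretches between paired windows take in centromere models, so they are not a like comparison. The intervals cover counting error only, and neighbouring regions are not independent. The rule used KAS summits as well as pulldown summits, so this is a description. By number of lists, from 1 to 4, the share in the windows was 78.8, 89.4, 97.1 and 98.5%, and outside 13.98, 28.9, 39.6 and 60.6%.

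**Figure D5:**
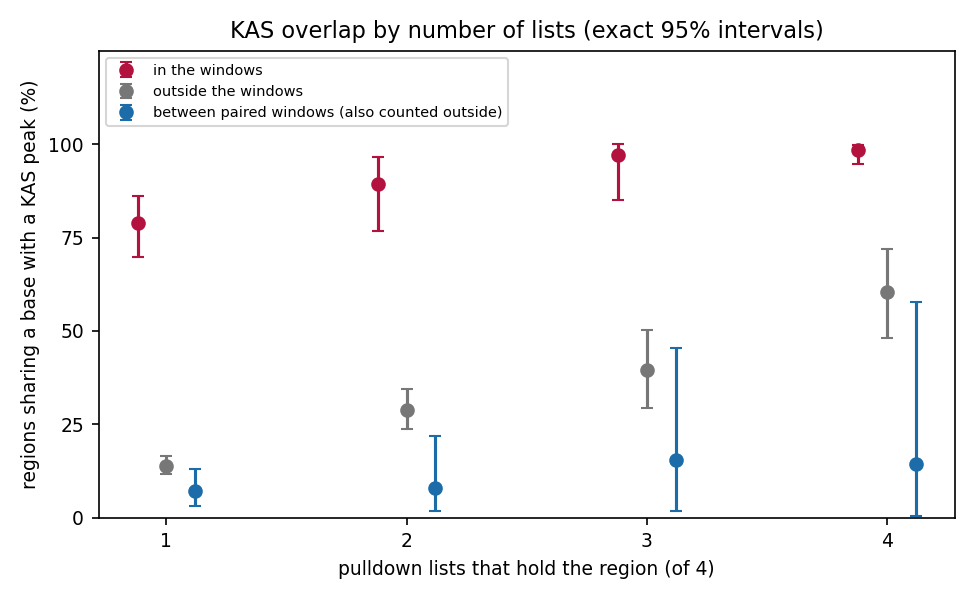
Share of merged pulldown regions that share a base with a KAS peak, by the number of pulldown lists that hold the region; points are shares and bars exact 95% intervals. The windows stand at 78.8% or more at every number of lists, above the regions outside, of which the stretches between paired windows are also shown on their own.

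Much of the ground is under KAS peaks there. KAS peaks covered 85.8% of the bases of the 168 regions (288 of 336 kb), 67.7% of the span of the 15 larger groups, and 2.71% of the windows outside these groups. Cover of a group ran from 31.7% at chr20:31157044-31242012 to 92.2% at chr21:7925832-7957364. Outside the windows KAS peaks covered 40.0% of the bases of reproducible regions, and between paired windows 15.1%. Regions in the windows were also wider, at a median of 1358 bases against 558. Among regions under 1 kb, 53 of 55 in the windows (96.4%) and 50 of 124 outside (40.3%) met a KAS peak. With the centre base as the criterion the shares were 79.8 and 21.6%.

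The 3 reproducible regions with no KAS peak were 2 neighbours on chromosome 20 and 1 region on chromosome 22. At chr20:28839047-28840011 the folds were 2.21, 2.33, 2.10 and 3.19 (2.46 ± 0.497). At chr20:28840523-28841745 they were 2.71, 3.21, 2.92 and 2.35 (2.80 ± 0.361). At chr22:11369465-11369944 they were 3.77, 2.70 and 3.08, with no peak in replicate 4 (3.18 ± 0.543, n = 3). None of these 3 means is at the edge of the range over reproducible regions in the windows, 1.58 to 5.01.

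Seen from the KAS side, 382 of the 1221 KAS peaks in the windows (31.3%) shared a base with a pulldown peak, against 346 of 33026 outside (1.05%). The windows were chosen on summits of both kinds of list, so this difference describes the choice and nothing is read from it. Window KAS peaks over a pulldown peak had a median width of 854.5 bases, a pileup of 102 reads and a fold of 5.38. The other 839 had 344 bases, 15 reads and 5.44. So the 2 kinds differed in width and height and hardly in fold. By window the share over pulldown peaks ran from 9.23% in the first chromosome 22 window to 68.2% in the second chromosome 10 window and 68.1% on chromosome 4. In the first chromosome 16 window, with the most KAS peaks, it was 13.3%. Across the 165 regions with both, r between log2 mean pulldown fold and log2 KAS fold was 0.58, while r between mean fold and width over all 168 was -0.07. Pulldown folds were lower at higher pileups, and pulldown and KAS pileups went together (r = 0.93 over 131 regions). The part of pileup in the r of 0.58 was not tested.

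None of the 12 highest KAS folds in the windows fell on a reproducible region, 10 of the 12 were within 15 kb of one, and 8 lay over a peak of some pulldown list. Of all 1221 KAS peaks in the windows, 272 were on a reproducible region and another 340 within 15 kb, 50.1% together. The 12 were not spread evenly, since 6 were in the second chromosome 10 window. When the strongest KAS peak of each window was taken instead, 6 of 14 were within 15 kb and 8 were farther off, up to 855 kb on chromosome 20. The highest was chr1:143274770-143276075, fold 23.8 and pileup 118 reads, 7.16 kb past the group of 20 regions on chromosome 1. Next came chr10:42099022-42099351 (fold 19.3, 8.14 kb away) and chr10:42091200-42093569 (18.2, 0.316 kb away), both just beyond the smaller chromosome 10 group. On chromosome 2, chr2:90400967-90401364 (15.6) lay 0.246 kb past a group. The 2 of the 12 that were farther off were chr4:49317567-49317853 (16.1, 161 kb) and chr22:16262227-16262699 (15.4, 84.2 kb). The KAS library has 1 sample, so these values have no replicate.

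RefSeq places 20 protein-coding genes in the windows, 1.14 per Mb against 6.49 per Mb over all chromosomes, so the stretches are gene-poor as labelled, and 313 genes of all kinds. Pulldown peaks touched 1 of the 313 entries and 0 of the 20 protein-coding genes. KAS peaks touched 23 of the 313 (7.35%) and 5 of the 20: KCNJ18 (fold 4.54), TPTE (3 peaks, the strongest 5.41), and the predicted genes LOC124904970 (5.57), LOC105379504 (5.98) and LOC101927345 (4.17). Outside the windows KAS peaks touched 10217 of 59366 entries (17.2%) and 7163 of 20017 protein-coding genes (35.8%). Pulldown peaks touched 21 entries there, 10 of them protein-coding, so few of any kind that 0 of 20 in the windows cannot be told apart from the rest. Entries in the windows were shorter, with a median span of 1.51 kb against 5.57 kb, and whether length accounts for the KAS shares was not tested. BAGE2, a member of the B melanoma antigen family, which is duplicated near centromeres, held 7 KAS peaks, the strongest of fold 7.68, and no pulldown peak. Reproducible regions lay a median of 282 kb from a protein-coding gene, the nearest at 15.7 kb, and 15 were over 1 Mb away.

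Gene families known for copies near centromeres were counted by name. Names beginning with IGK, of the immunoglobulin kappa light chain, had 42 entries in the windows, of which 5 lie outside the kappa locus itself (4 of them on chromosome 22), FRG1 and FRG2 copies 7, ANKRD genes 6, DUX4L repeats 16, POTE genes 2, TPTE genes 2, and BAGE, DEFB, OR11H and KCNJ genes 1 each. Of the 16 DUX4L, 7 FRG1 or FRG2, 6 ANKRD and 2 POTE entries, 0 touched a KAS or pulldown peak, and the DEFB and OR11H entries touched none. KAS peaks touched 1 of the 42 IGK entries, 1 of the 2 TPTE entries, and the BAGE and KCNJ entries. Over all 313 entries in the windows KAS peaks touched 23 (7.35%) and pulldown peaks 1. With shares that low, 0 in a small family is not read as a difference. Touching needs a shared base, so a neighbour is not counted.

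The single entry with pulldown peaks was IGK, the immunoglobulin kappa light chain locus, whose entry in the table is chr2:88857361-90235368 and so crosses into the window. Pulldown peaks inside it numbered 12, 11, 11 and 15 in replicates 1 to 4, and KAS peaks with a summit in the window 48. All 7 reproducible regions that touched any gene were in it, grouped at chr2:89799195-89841259; the other 161 touched none. Of the 36 named segments inside the IGK entry and the window, 0 had a pulldown or KAS peak. The strongest of the 7 was chr2:89799195-89800607, with folds 3.89, 4.34 and 6.37 in replicates 2, 3 and 4 and none in replicate 1 (4.87 ± 1.32, n = 3), at pileups of only 21, 18 and 23 reads. The most even was chr2:89826095-89826671, with 2.67, 2.56, 2.56 and 2.64 (2.61 ± 0.0555). At chr2:89830616-89831211 the folds were 4.01, 3.56, 4.57 and 3.10 (3.81 ± 0.629), rank 7 in the windows. The spread was largest at chr2:89835966-89838845, with 2.77, 2.56, 5.78 and 1.85, where replicate 3 was far above the others.

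The windows were drawn on dense stretches of these same peaks, so fewer peaks past their edges follow from the choice. The counts at the edges are therefore a description only. A window of 0.2 Mb, such as the densest one, lies wholly within 100 kb of its edges. In the 100 kb just inside the window edges there were 98, 84, 71 and 89 pulldown peaks with median folds 2.38, 2.00, 2.91 and 2.90. In the 100 kb just outside there were 12, 1, 11 and 9, with median folds 3.41, 2.26, 3.68 and 3.23. KAS peaks numbered 334 inside (median fold 5.47) and 133 outside (5.01). Between the paired windows, the stretch of chromosome 10 from 39.7 to 41.6 Mb held 92 merged regions, of which 9 were reproducible and 1 of those met a KAS peak. The stretch of chromosome 22 from 12.9 to 15.1 Mb held 83, with 10 reproducible and 1 meeting a KAS peak. The stretch of chromosome 16 from 35 to 46.3 Mb held 9, of which 1 was reproducible and met a KAS peak, among 105 KAS peaks. That of chromosome 1, from 125.2 to 143.1 Mb, held no peak of any list. Whether reads can map to that stretch was not analysed, so no lack of signal is read from it.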

How the data were processed

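Peak lists of 4 thrombin pulldowns and 1 KAS library were used. The lists hold, per the file headers, for each peak its start, end, summit, pileup (a coverage signal in reads at the summit), -log10 p, fold enrichment (a ratio over local background) and -log10 q, as deposited by the authors. Each library has its own list. MACS2 2.2.7.1, BWA, bedtools 2.30.0, SAMtools 1.6, Picard 2.27.4 and the build GRCh38.p13 are listed, without roles, in the submitters' processing notes. No source used here says whether the inputs entered the peak calling. The lists give no library totals, so depth is unknown.

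Here peaks were assigned by summit and merged regions by centre, with Python 3.11.15, pandas 2.3.3, NumPy 2.4.6, SciPy 1.17.1 and Matplotlib 3.10.9. Overlaps were checked with bedtools 2.31.1, and the steps were tested on simulated data. Regions need 1 shared base, and reproducible ones 3 of 4 lists. Shares carry exact Clopper-Pearson 95% intervals. Gene names, positions and sequences are from RefSeq tables of GRCh38.p14, whose chromosome coordinates are those of GRCh38. Regions were named by rank: the 12 first when sorted on list count, then on mean fold, the best of each window and the 5 widest; other regions named were chosen after their values were seen. The windows and lists were chosen with earlier results of these data known, so no p-values are given. Groups of regions, pileup bands, pileup variation, tandem repeats in promoters, KAS cover, overlap of lists in both directions, distances of KAS peaks, genes touched outside the windows and the limit to regions under 1 kb were added after seeing the data. ATTCC content under peaks was planned but not run, as no genome sequence was used.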

Additional observations from a re-analysis of the deposited data

Results flagged for a closer look

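Of 45 sets of 4 replicate values, 3 had a replicate far from the others by Dixon's criterion, where chance gives about 1 in 20 sets, 2.25 here. The share of peaks in the windows was 47.4% in replicate 2, against 33.2, 30.9 and 30.6% (mean of those 3, 31.6%). The chromosome 2 window, 89.7 to 91.5 Mb, held 28 peaks in replicate 4 against 22, 22 and 23. The fold at chr16:46380470-46381567 was 1.97 in replicate 3 against 3.92, 3.91 and 3.76.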

How the results depend on the processing

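The fold difference, the only main result that can change sign, stayed negative under the alternatives run. Of the alternative values of the main results 17 moved and 58 did not. Moves were judged by the SD between replicates or by the exact interval of a share. For a mean over the 4 lists, leaving out a replicate cannot shift it by as much as that SD. Those values were bound to count as not moved, so they say nothing of stability. For the count of reproducible regions a factor of 1.5 was used. Keeping the higher 50% of each list by fold moved most: 19.5% of pulldown peaks in the windows, 23 reproducible regions, 78.3% of them on KAS and 40.5% outside, a median fold of 4.02, a fold difference of -0.552 and 55.4 kb. Requiring 50% of both peaks to be shared left 104 reproducible regions. Widening the windows by 250 kb gave 4.27% of KAS peaks. With the centre base as criterion, KAS overlap was 79.8% in the windows and 21.6% outside. Outside it was also 36.0% for regions in at least 2 lists, 60.6% for all 4 lists and 40.3% for regions under 1 kb. With 2 of 3 lists required, it was 36.4 and 36.6% when replicate 3 or 4 was left out. Leaving out replicate 1 or 2 gave 41.7 and 40.9%, which did not count as moved. Taking only the strongest peak per region, the fold difference was -0.833. The causes were not tested. Reproducible regions in the windows, 168 as reported, numbered 176 to 209 with a replicate left out (2 of 3 lists), 215 for at least 2 lists and 133 for all 4; KAS overlap with a replicate left out was 96.9 to 97.7%. The ATTCC content alternative was not run. No paired analysis was possible because the inputs that share replicate numbers with the pulldowns are not analysed here. Depth is unknown, and KAS has 1 library.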
